A study of Homo sapiens with 12 samples.

Results

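This account covers 43 genes that write, erase or read acetyl groups on lysine: 15 acetyltransferases, 11 zinc-dependent deacetylases, 7 sirtuins, 4 bromodomain proteins and 6 non-catalytic subunits of acetyltransferase complexes. They were taken by gene symbol from a list drawn up by function and matched to both deposited tables on the gene identifier, and all 43 were found among the 60558 identifiers that the tables share. The libraries came from MDA-MB-231, an established human triple-negative breast cancer (TNBC) cell line, so all groups share its genotype. By the library titles they differ only in the knockdown, and the titles do not name the means of silencing. The study's methods use the name negative control for the control of its small interfering RNAs (siRNAs). One experiment set cells with NONO silenced (NONO-KD) against its own negative control (NC), and the other set cells with PKM2 silenced (PKM2-KD) against a separate NC group. Each of the 4 groups had 3 libraries, and the experiments shared no library. The sources used here do not say whether the 3 libraries of a group came from separate cultures, so the P values measure the spread between libraries, which may be technical, and 1 cell line limits what the groups stand for.

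Acetyltransferases move the acetyl group of acetyl-CoA onto lysines of histones and other proteins, and most of them work inside large complexes such as NuA4, SAGA and ATAC. Zinc-dependent deacetylases (HDACs) and the NAD-dependent sirtuins take the group off again, and bromodomains bind the acetylated lysine. NONO is a nuclear RNA- and DNA-binding protein of paraspeckles, and PKM2 is a splice form of pyruvate kinase made from the PKM gene. In its PKM2 data the study also looked for changes of histone acetyltransferase transcripts, KAT5 among them.

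The libraries held 19861762 to 28455268 estimated counts each. Values below are CPM, counts scaled to library size after TMM normalization, unless TPM, which is also per transcript length, is named. In NC libraries 1 to 3 of its experiment NONO was at 391, 358 and 369 CPM, against 61.8, 64.3 and 61.9 in NONO-KD, or 16.8% of NC. PKM stood at 2276, 2211 and 2324 CPM in NC and at 218, 228 and 234 in PKM2-KD, or 9.99% of NC. Both knockdowns are thus visible in every library, and the gene-level counts of PKM do not separate PKM2 from PKM1. Of the markers of the line, 5 genes expected to be high (VIM, CD44, EGFR, AXL and CAV1) lay between 50.7 and 4466 TPM in all libraries, while ESR1, PGR, CDH1 and EPCAM lay between 0 and 3.73 TPM and ERBB2 between 13.7 and 35.2 TPM. Fibroblast genes reached 0.76 TPM and the leukocyte gene PTPRC 0.15 TPM at most. Replicates differed by more than counting noise, with a chi-square per degree of freedom of 2.34 to 13.2, and 2 libraries lay farthest from their replicates, replicate 1 of NC in the NONO experiment and replicate 3 of PKM2-KD.

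In control cells the members spanned a wide range of levels, from HDAC2 at 248 TPM ± 15.7 to SIRT4 at 0.943 TPM ± 0.317 (SD, n = 3) in the NC libraries of the NONO experiment. HDAC2, a deacetylase of the NuRD, Sin3 and CoREST corepressors, BRD2, a bromodomain protein of the BET family, and HAT1, which acetylates newly made histone H4, were the 3 members above 100 TPM in both NC groups. A further 4 members (HDAC1, SIRT7, KAT2A and HDAC3) lay between 50 and 100 TPM in both, and BRD7 averaged 83.9 TPM in the NC libraries of the NONO experiment and ranged from 91.2 to 111 TPM in those of the PKM2 experiment. The median member stood at 20.3 TPM in the NONO experiment and at 17.8 TPM in the PKM2 experiment. Among the best-known acetyltransferases, KAT5 was at 40.1 TPM ± 2.76, EP300 at 19.2 ± 1.30, CREBBP at 15.8 ± 0.511 and KAT2B at 7.57 ± 0.492 (SD, n = 3, NC of the NONO experiment). The lowest levels were those of NCOA2 (5.10 TPM), SIRT5 (4.78), HDAC11 (3.74), NCOA1 (3.53) and SIRT4. The order is coarse, since the ranges of neighbouring members overlapped in 31 of 42 steps in the NONO experiment and in 27 of 42 in the PKM2 experiment. HDAC2, BRD2 and HAT1 did not overlap with the next member in the NONO experiment, nor did HDAC2 and BRD2 in the PKM2 experiment.

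**Figure D1:**
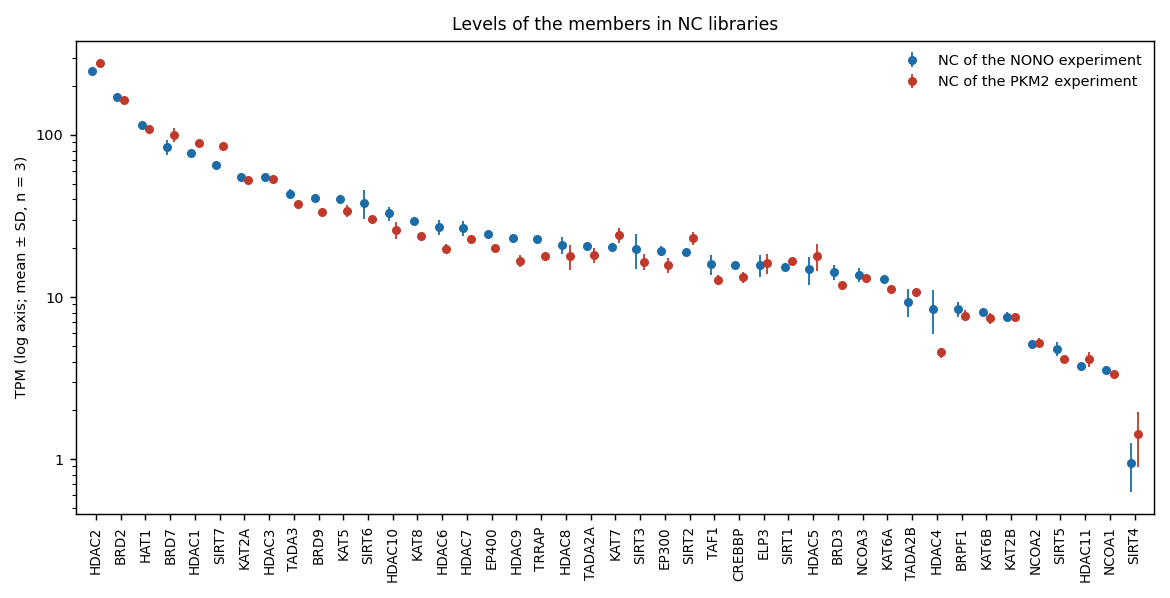
TPM of each of the 43 members in the NC libraries of the NONO experiment (blue) and of the PKM2 experiment (red), as mean ± SD over 3 libraries on a log axis, ordered by the first. HDAC2, BRD2 and HAT1 stand above 100 TPM in both, SIRT4 lies near 1 TPM, and most members lie between 10 and 50 TPM.

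After NONO knockdown few members moved and none by as much as 2-fold. All 43 passed the filter on low counts and were tested. At an adjusted P below 0.05 (edgeR's quasi-likelihood test, Benjamini-Hochberg over all genes), 7 members were raised, a share of 16.3%, and 5 were lowered, 11.6%, against 16.2% raised and 17.2% lowered of the 14832 genes tested. The raised share is near that of all genes and the lowered share is below it. The median log2 fold change was 0.01 for the members and -0.01 for all genes. The study's methods call a gene differentially expressed (a DEG) at more than 2-fold and P below 0.05 before adjustment. By these cutoffs 0 members were DEGs, by edgeR as by DESeq2 and by limma on log2(TPM + 1). Of all genes 2.95% were DEGs by edgeR, and the shares by DESeq2 and limma were not counted. At an unadjusted P below 0.05 alone there were 17 members by edgeR, 14 by DESeq2 and 12 by limma. The share of all genes at that cutoff was not counted, so these numbers say nothing particular about the members. Without the first NC library, which stood apart, 19 of 43 members were called, beside 6249 of the 15170 genes tested in that fit. Added there were HAT1, KAT6A, CREBBP, HDAC2 and BRD7 as raised (0.11 to 0.16) and HDAC5 (-0.31) and HDAC6 (-0.19) as lowered. The raised members were ELP3, HDAC1, HDAC3, HDAC7, SIRT5, BRD3 and BRPF1, and the lowered ones KAT2B, NCOA1, SIRT3, SIRT7 and BRD2.

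PKM2 knockdown moved most of the list, as it did most of all genes. It gave 32 called members of 43, beside 10614 of the 15524 genes tested. Of the 43 members 22 were raised, 51.2%, and 10 were lowered, 23.3%, against 33.6% raised and 34.7% lowered of the 15524 genes tested. The median log2 fold change was 0.19 for the members and -0.01 for all genes. As DEGs stood 7 members, 5 raised (ELP3, CREBBP, NCOA3, BRD2 and BRPF1) and 2 lowered (HDAC2 and HDAC11), a share to be read beside the 20.8% of all genes that were DEGs. DESeq2 gave 7 members by these cutoffs and limma on log2(TPM + 1) gave 3. The 20.8% is the share by edgeR, and the shares of all genes by DESeq2 and limma were not counted. By group, 10 of 15 acetyltransferases were raised and 3 lowered, 4 of 11 zinc-dependent deacetylases were raised and 5 lowered, 3 of 7 sirtuins and 3 of 4 bromodomain proteins were raised with 0 lowered, and the 6 complex subunits split into 2 raised and 2 lowered. The median log2 fold changes of these groups were 0.33, -0.09, 0.17, 0.41 and 0.01 in the order acetyltransferases, zinc-dependent deacetylases, sirtuins, bromodomain proteins and subunits. In these fits 10 members were called in neither experiment: KAT6B, EP300, HDAC5, HDAC8, SIRT1, SIRT2, SIRT4, BRD7, EP400 and TADA2B.

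**Figure D2:**
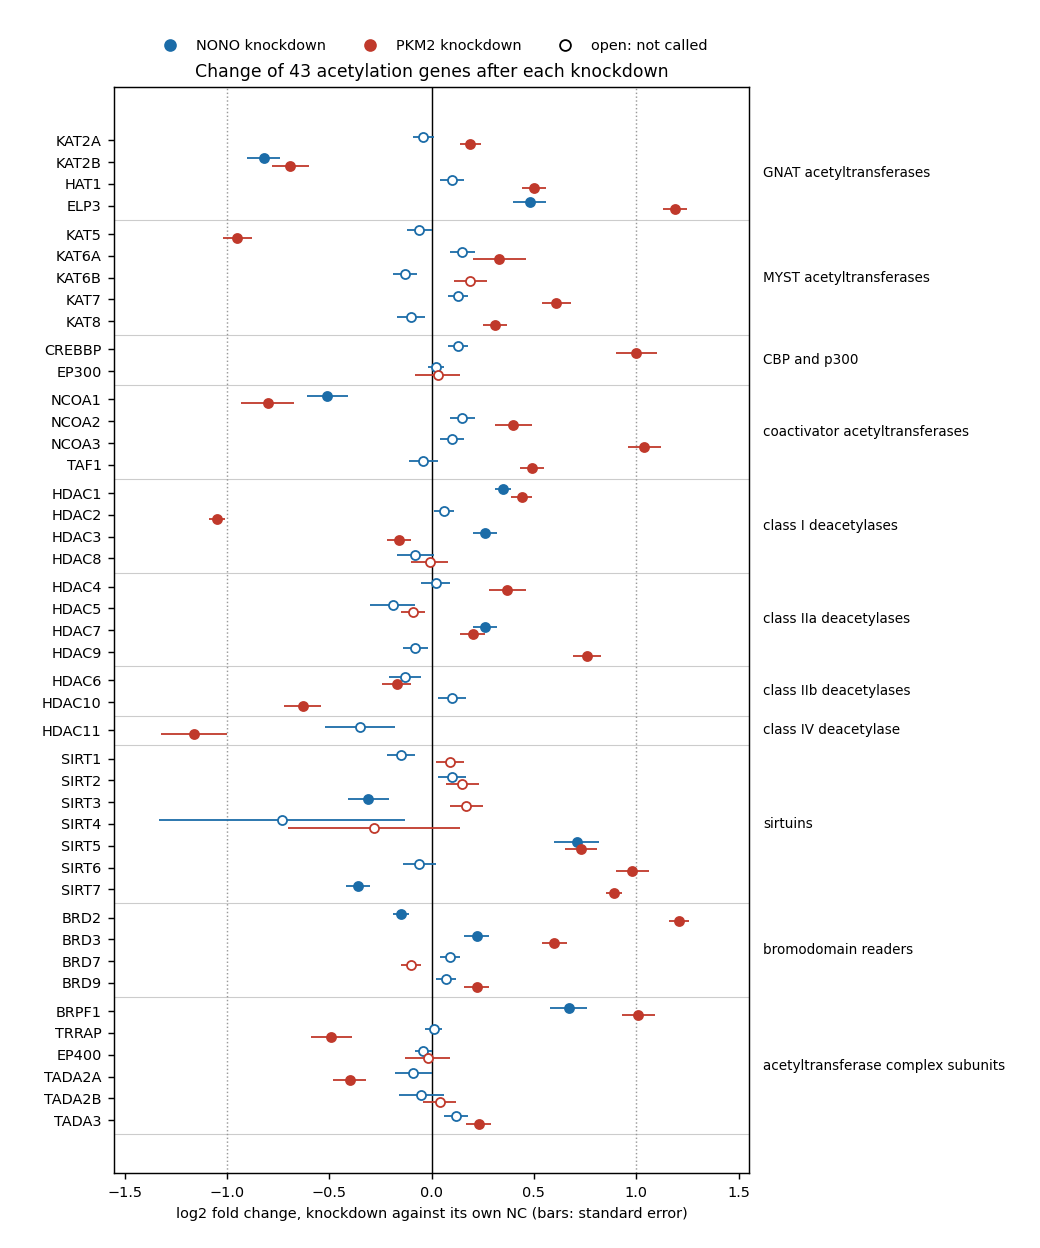
Log2 fold change of each member after NONO knockdown (blue) and PKM2 knockdown (red) against its own NC, with the standard error, grouped by role. Filled points passed an adjusted P below 0.05 and open points did not, and the dotted lines mark 2-fold. The PKM2 points of HDAC2 and HDAC11 lie left of -1 and those of BRD2, ELP3, NCOA3, BRPF1 and CREBBP at or right of 1, while every NONO point lies between -0.82 and 0.71.

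KAT5, on chromosome 11 from 65711996 to 65719604 (GRCh38, GENCODE 29), encodes TIP60, the catalytic subunit of NuA4. In the PKM2 experiment it was at 32.8, 35.3 and 34.7 CPM in NC and at 17.2, 18.1 and 17.7 CPM in PKM2-KD. The groups were far apart and KAT5 fell to 51.6% of NC, a log2 fold change of -0.95 (SE 0.07, adjusted P = 1.30e-07). In this count fit it lies just short of the 2-fold cutoff for a DEG. Over all settings the log2 fold change ranged from -1.03 to -0.83, so the side of the cutoff depended on the setting. In TPM the means were 33.9 in NC and 16.5 in PKM2-KD. In the NONO experiment NC libraries held 43.6, 44.1 and 39.7 CPM and NONO-KD libraries 40.5, 42.0 and 39.8, which overlapped (log2 fold change -0.06, SE 0.06, adjusted P = 0.501). The change after PKM2 knockdown was lower than that after NONO knockdown by 0.91 on the log2 scale, with a 95% interval of ± 0.17 (adjusted P = 1.84e-07, interaction over the 12 libraries). RNASEH2C, which lies opposite to KAT5 and overlaps its exons over 1439 bases, went the other way after PKM2 knockdown (0.26, adjusted P = 0.00683). The sources used here do not state a strand setting for the counting.

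The GNAT family split in direction. KAT2B (PCAF), on chromosome 3 from 20040023 to 20154404, one of the interchangeable catalytic subunits of SAGA and ATAC, fell in both experiments. NC libraries of the NONO experiment held 22.2, 21.9 and 22.4 CPM of it and NONO-KD libraries 12.4, 12.5 and 12.8. In the PKM2 experiment the values were 20.6, 22.1 and 21.3 in NC against 12.8, 12 and 15. No knockdown library reached an NC library, and the log2 fold changes were -0.82 (SE 0.08, adjusted P = 1.82e-05) and -0.69 (SE 0.09, adjusted P = 3.69e-05). The difference between the knockdowns was 0.12 ± 0.24 (95% interval, adjusted P = 0.433), so the interval holds 0 as well as a difference of up to 0.36. KAT2A, the alternative subunit, was at 97.3% of NC after NONO knockdown (adjusted P = 0.544) and rose to 114% after PKM2 knockdown (adjusted P = 0.00568).

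ELP3, the catalytic subunit of the Elongator complex that modifies tRNA, rose in both experiments and more after PKM2 knockdown. It was at 32.5, 28.7 and 26.8 CPM in NC and at 42.3, 41.9 and 38.7 in NONO-KD, a log2 fold change of 0.48 (SE 0.08, adjusted P = 0.000731). In the PKM2 experiment it went from 27.0, 25.9 and 27.0 CPM to 59.5, 60.7 and 62.4, or 228% of NC (1.19, SE 0.06, adjusted P = 5.71e-09). The changes differed by 0.70 ± 0.19 (95% interval, adjusted P = 1.06e-05). HAT1 held 114, 113 and 107 CPM in NC and 155, 148 and 168 in PKM2-KD, a log2 fold change of 0.50 (SE 0.06, adjusted P = 7.76e-06). In the NONO experiment its groups overlapped, with 123, 113 and 110 CPM in NC and 119, 122 and 130 in NONO-KD (0.10, adjusted P = 0.180).

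Of the other MYST acetyltransferases, KAT7 (HBO1), which takes part in the licensing of replication origins, changed most. It went from 53.3, 63.1 and 58.2 CPM in NC to 92.7, 88.2 and 84.7 in PKM2-KD (0.61, SE 0.07, adjusted P = 7.61e-06). In the NONO experiment its values were 57.2, 58.9 and 58.4 CPM in NC and 63.6, 61.8 and 64.9 in NONO-KD, without overlap but short of the threshold (0.13, adjusted P = 0.0682). KAT8 (MOF) rose to 124% of NC after PKM2 knockdown (0.31, adjusted P = 0.00109). KAT6A, which with BRPF1 forms a complex of its own, passed in that experiment with 0.33 (adjusted P = 0.0346), although the third PKM2-KD library, at 61.7 CPM, lay below all NC libraries (64.5, 68.4 and 63.8) and the other knockdown libraries at 91.3 and 94.8. Its call was lost in 5 of 6 fits that left out 1 library, with an adjusted P of up to 0.150, and was kept without the third PKM2-KD library (0.51, adjusted P = 1.07e-06). KAT6B was not called (0.19, adjusted P = 0.0661).

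CREBBP and EP300, the closely related CBP and p300 that serve as coactivators of many transcription factors, parted after PKM2 knockdown. CREBBP, on chromosome 16 from 3725054 to 3880726, was at 80.6, 83.1 and 77.1 CPM in NC and at 173, 179 and 130 in PKM2-KD, a rise to 200% (log2 fold change 1.00, SE 0.10, adjusted P = 3.13e-06). EP300, on chromosome 22 from 41091786 to 41180079, was at 84.3, 87.1 and 81.5 CPM in NC and at 96.6, 94.9 and 66.1 in PKM2-KD (0.03, SE 0.11, adjusted P = 0.850). For both genes the third PKM2-KD library stood well under its replicates, and for EP300 it was also under every NC library. With that library left out the log2 fold change was 1.14 for CREBBP (adjusted P = 2.57e-10) and 0.19 for EP300 (adjusted P = 0.00208), so whether EP300 was called depended on 1 library. In the NONO experiment CREBBP was at 98.7, 95.2 and 92.5 CPM in NC and at 104, 100 and 109 in NONO-KD (0.13, adjusted P = 0.0594), and this passed without the first NC library (0.16, adjusted P = 0.00664). EP300 was at 102, 98.4 and 98.2 CPM in NC and at 103, 99.8 and 101 in NONO-KD (0.02, adjusted P = 0.734). The difference between the knockdowns was 0.86 ± 0.24 for CREBBP (adjusted P = 1.78e-05) and -0.01 ± 0.27 for EP300 (95% intervals, adjusted P = 0.969).

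The steroid receptor coactivators moved in opposite directions. NCOA1 was at 16.8, 19.0 and 16.3 CPM in NC and 13.3, 11.3 and 12 in NONO-KD (-0.51, SE 0.10, adjusted P = 0.00243). In the PKM2 experiment it was at 16.0, 14.6 and 16.1 in NC and 9.86, 10 and 6.98 in PKM2-KD (-0.80, SE 0.13, adjusted P = 0.000152). It thus fell in both, and the difference of -0.30 ± 0.33 was not called (adjusted P = 0.146). NCOA3 went from 64.3, 69.5 and 72.5 CPM to 149, 150 and 124 after PKM2 knockdown (1.04, SE 0.08, adjusted P = 2.36e-07), while its groups overlapped in the NONO experiment (70.5, 77.6 and 81.8 in NC against 82.6, 80.4 and 83.0, log2 fold change 0.10, adjusted P = 0.223). NCOA2 (0.40, adjusted P = 0.00182) and TAF1, the largest subunit of TFIID (0.49, adjusted P = 2.12e-05), also rose after PKM2 knockdown and were not called after NONO knockdown. The rise of NCOA2 was seen in counts only, since limma on log2(TPM + 1) gave 0.04 (adjusted P = 0.838).

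**Figure D3:**
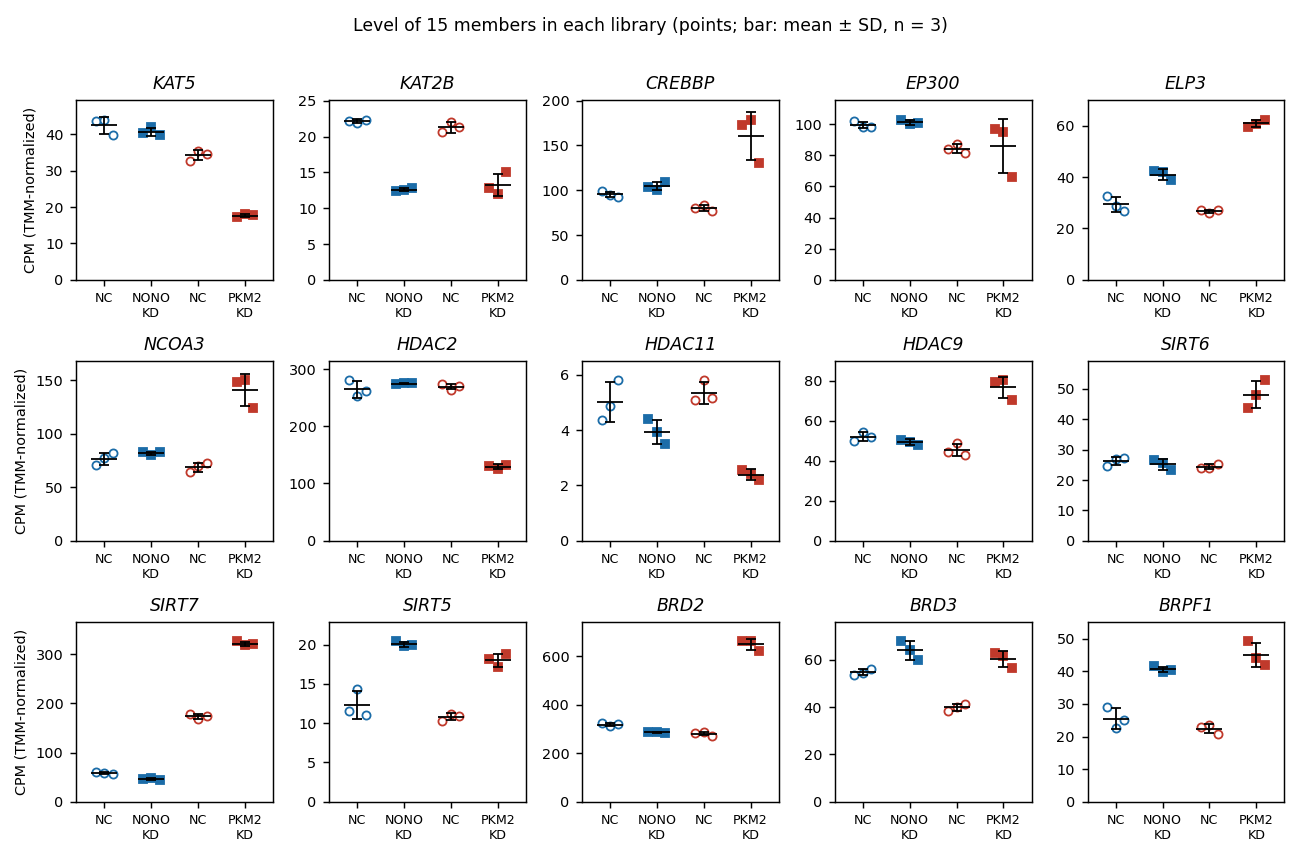
CPM of 15 members in every library, with NC as open circles and knockdown as filled squares, blue for the NONO and red for the PKM2 experiment, and the mean ± SD over 3 libraries in black. KAT5, HDAC2 and HDAC11 lie lower and ELP3, NCOA3, SIRT6 and BRD2 higher in all PKM2-KD libraries than in their NC, and the third PKM2-KD library is the lowest of its group for CREBBP and EP300.

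Among the class I deacetylases HDAC1 and HDAC2, paralogs that share the same complexes, diverged. HDAC2, the most abundant member, on chromosome 6 from 113933028 to 114011308, went from 273, 264 and 270 CPM in NC to 130, 126 and 133 in PKM2-KD, or 48.3% of NC (log2 fold change -1.05, SE 0.04, adjusted P = 2.83e-09). HDAC1 rose to 136% of NC in the same libraries (0.44, adjusted P = 4.18e-06). After NONO knockdown HDAC2 was at 273, 275 and 276 CPM, within the range of 280, 252 and 261 in NC (0.06, adjusted P = 0.386), while HDAC1 rose to 127% (0.35, adjusted P = 0.000120). The changes of HDAC2 differed by -1.12 ± 0.13 between the knockdowns (adjusted P = 3.68e-10) and those of HDAC1 by 0.08 ± 0.12 (95% intervals, adjusted P = 0.297). HDAC3, a catalytic subunit of nuclear receptor corepressor complexes, was raised after NONO knockdown (0.26, adjusted P = 0.00402) and lowered after PKM2 knockdown (-0.16, adjusted P = 0.0271), and the difference of -0.44 ± 0.16 was called (adjusted P = 0.000201). The fall of HDAC3 was small, and its call was lost in 4 of 6 fits that left out 1 library (adjusted P up to 0.104). HDAC8 was not called in either experiment. HDAC2 shares 69 exon bases with HDAC2-AS2 on the opposite strand, which moved up by 0.87 after PKM2 knockdown (adjusted P = 1.79e-06).

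Most class IIa deacetylases, which shuttle between nucleus and cytoplasm and bind MEF2 factors, were raised after PKM2 knockdown. HDAC9 led with 44.1, 49.0 and 42.9 CPM in NC against 79.3, 80.1 and 70.4 in PKM2-KD (0.76, SE 0.07, adjusted P = 1.62e-06). Its NONO libraries overlapped, at 49.9, 54.5 and 51.6 in NC and 50.5, 49.5 and 47.8 in NONO-KD (-0.08, adjusted P = 0.325). HDAC4 rose by 0.37 on the log2 scale (adjusted P = 0.00320) and HDAC7 by 0.20 (adjusted P = 0.0147) after PKM2 knockdown. HDAC7 was also raised after NONO knockdown (0.26, adjusted P = 0.00832). Its PKM2 call was lost without the second NC library (0.16, adjusted P = 0.0735) or the second PKM2-KD library (0.18, adjusted P = 0.0538).

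The class IIb and class IV enzymes were lowered after PKM2 knockdown. HDAC11, at low level, was at 5.09, 5.80 and 5.15 CPM in NC and at 2.57, 2.41 and 2.18 in PKM2-KD, or 44.7% of NC (-1.16, SE 0.16, adjusted P = 4.43e-05). HDAC10, a polyamine deacetylase, went from 22.1, 20.3 and 25.4 CPM to 13.8, 15.1 and 15.0 (-0.63, SE 0.09, adjusted P = 8.73e-05). HDAC6, which deacetylates tubulin, was at 88.9% of NC (-0.17, adjusted P = 0.0405) and lost its call in 5 of 6 fits that left out 1 library (adjusted P up to 0.121). In the NONO experiment HDAC11 held 4.37, 4.86 and 5.80 CPM in NC and 4.39, 3.92 and 3.51 in NONO-KD (-0.35, adjusted P = 0.138), and HDAC10 held 27.6, 28.5 and 24.3 against 28.4, 28.9 and 28.7 (0.10, adjusted P = 0.351). The groups overlapped for both. HDAC10 shares 2763 exon bases with MAPK12 on the same strand, and MAPK12 fell too after PKM2 knockdown (-0.47, adjusted P = 0.000109). With the counts of both genes summed the log2 fold change was -0.53 (adjusted P = 1.36e-05).

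The sirtuins are best told by compartment. SIRT6, a chromatin-bound deacetylase with a known part in the control of glycolytic genes, rose from 23.9, 23.9 and 25.4 CPM to 43.6, 48.1 and 52.8 after PKM2 knockdown, or 197% of NC (0.98, SE 0.08, adjusted P = 3.34e-07). After NONO knockdown its groups overlapped, at 26.7, 25.6 and 23.3 against 24.7, 26.8 and 27.4 in NC (-0.06, adjusted P = 0.590), and the difference of 1.03 ± 0.22 was called (adjusted P = 5.23e-07). SIRT5, a mitochondrial desuccinylase, rose alike in both experiments. It went from 11.5, 14.4 and 11 CPM to 20.4, 19.8 and 19.9 in NONO-KD (0.71, SE 0.11, adjusted P = 0.000428) and from 10.3, 11.2 and 10.9 to 18.1, 17.1 and 18.8 in PKM2-KD (0.73, SE 0.08, adjusted P = 9.03e-06). The difference was 0.01 with a 95% interval of ± 0.27 (adjusted P = 0.959). SIRT3, the main mitochondrial deacetylase, passed after NONO knockdown at 80.7% of NC (-0.31, adjusted P = 0.0326), a call that was lost in 5 of 6 fits that left out 1 library (adjusted P up to 0.157), and did not pass after PKM2 knockdown (0.17, adjusted P = 0.0905). Without the first PKM2-KD library SIRT2, a mostly cytoplasmic deacetylase, passed after PKM2 knockdown (0.23, adjusted P = 0.0229), as it did with a trend over length and GC content taken out (0.28, adjusted P = 0.00356). With all libraries and no such correction SIRT1, SIRT2 and SIRT4 were called in neither experiment, and SIRT4 was so low (0.423 to 1.40 CPM in the NC libraries of the PKM2 experiment) that its difference had an interval of ± 1.53.

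SIRT7, the nucleolar sirtuin, gave calls of opposite sign, and its counts need care. It was at 61.0, 58.1 and 57.3 CPM in NC and 46.2, 47.3 and 43.7 in NONO-KD (-0.36, SE 0.06, adjusted P = 0.000495), but at 178, 169 and 174 CPM in NC and 326, 318 and 320 in PKM2-KD (0.89, SE 0.04, adjusted P = 9.59e-09). The NC level of the same cell line thus lay far higher in the second table. SIRT7 shares 105 exon bases with MAFG on the same strand, and MAFG averaged 124 CPM in the NC libraries of the NONO experiment but 8.94 CPM in those of the PKM2 experiment. The sum of both genes was 183 CPM in either NC group, so the tables divided a like total differently between them. With the counts summed, the pair fell to 162 CPM after NONO knockdown (log2 fold change -0.17, SE 0.04, adjusted P = 0.00964) and rose to 324 CPM after PKM2 knockdown (0.83, SE 0.04, adjusted P = 1.75e-08), a difference of 0.99 (adjusted P = 8.91e-10). Which of the pair carried each change cannot be told apart in these counts.

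BRD2 and BRD3 belong to the BET family, whose paired bromodomains bind acetylated histone H4. BRD2, on chromosome 6 from 32968660 to 32981505, showed the largest rise of any member after PKM2 knockdown, from 283, 288 and 273 CPM in NC to 662, 662 and 624, or 231% of NC (1.21, SE 0.05, adjusted P = 1.38e-09). After NONO knockdown it was slightly lower, at 288, 288 and 282 CPM against 324, 311 and 319 in NC (-0.15, SE 0.04, adjusted P = 0.0103). That small fall was lost without the third NC library (adjusted P = 0.0507) or the third NONO-KD library (adjusted P = 0.0589), whereas the difference between the knockdowns, 1.35 ± 0.12, was the largest among the members (adjusted P = 1.59e-11). BRD3 rose in both, from 53.8, 54.5 and 56.3 CPM to 67.8, 64.3 and 59.8 in NONO-KD (0.22, adjusted P = 0.0119) and from 38.4, 40.0 and 41.3 to 62.8, 61.8 and 56.6 in PKM2-KD (0.60, SE 0.06, adjusted P = 3.72e-06). The NONO call on BRD3 was lost without the first NONO-KD library (0.18, adjusted P = 0.0627). BRD3 shares 1281 exon bases with BRD3OS on the opposite strand, and BRD3OS fell after PKM2 knockdown (-2.00, adjusted P = 4.45e-09). BRD9, of the non-canonical BAF complex, rose by 0.22 on the log2 scale after PKM2 knockdown (adjusted P = 0.00365), and BRD7, of the PBAF complex, was not called in either experiment.

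Of the complex subunits, BRPF1, the scaffold of the KAT6A and KAT6B complexes, rose in both experiments. It went from 29.1, 22.5 and 25 CPM to 41.6, 39.9 and 40.3 in NONO-KD (0.67, SE 0.09, adjusted P = 0.000163) and from 23.0, 23.4 and 20.8 to 49.2, 44.1 and 41.9 in PKM2-KD (1.01, SE 0.08, adjusted P = 3.03e-07). The groups did not overlap in either. TRRAP, which serves both SAGA and NuA4, fell to 71.3% of NC after PKM2 knockdown (-0.49, SE 0.10, adjusted P = 0.00115), and less without the third PKM2-KD library (-0.34, adjusted P = 4.22e-06). TADA2A, the adaptor of ATAC, fell by 0.40 on the log2 scale (adjusted P = 0.00101). TADA3, shared by SAGA and ATAC, rose by 0.23 on that scale (adjusted P = 0.00757), and TADA2B, the adaptor of SAGA, stayed at 103% of NC (adjusted P = 0.668). EP400, the ATPase of NuA4, was at 98.7% of NC (adjusted P = 0.892) with the third PKM2-KD library at 82.1 CPM, under the 109, 109 and 108 CPM of NC, and the other knockdown libraries at 123 and 117.

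The third PKM2-KD library set long transcripts lower than its replicates did. For the 10 members whose transcript length in the table was at least 8000 bases, its CPM divided by the mean of the first and second library had a median of 0.769 and a range of 0.663 to 1.03, with 9 of 10 under 1. For the other 33 members the median was 0.999 and the range 0.702 to 1.21. Without it EP300 (0.19, adjusted P = 0.00208), KAT6B (0.26, adjusted P = 0.00991), BRD7 (-0.12, adjusted P = 0.00863) and EP400 (0.15, adjusted P = 0.00472) passed the threshold, EP400 with the other sign, and HDAC6 no longer did (-0.11, adjusted P = 0.121). KAT6B also passed without the second NC library (0.26, adjusted P = 0.0184). Leaving the third library out gave 35 called members in place of 32, beside 10863 of 15912 genes tested in place of 10614 of 15524. With a trend over length and GC content taken out of all PKM2 libraries, 28 of 43 members were raised and 11 lowered. Of the 15524 genes tested there, 5229 were raised and 5683 lowered. Under that setting the rises of KAT2A (0.41), HDAC4 (0.75), HDAC7 (0.56) and BRD3 (0.94) were larger, that of HAT1 (0.21) was smaller, and so were the falls of HDAC10 (-0.24) and TRRAP (-0.27). The part of library quality in these values was not tested.

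**Figure D4:**
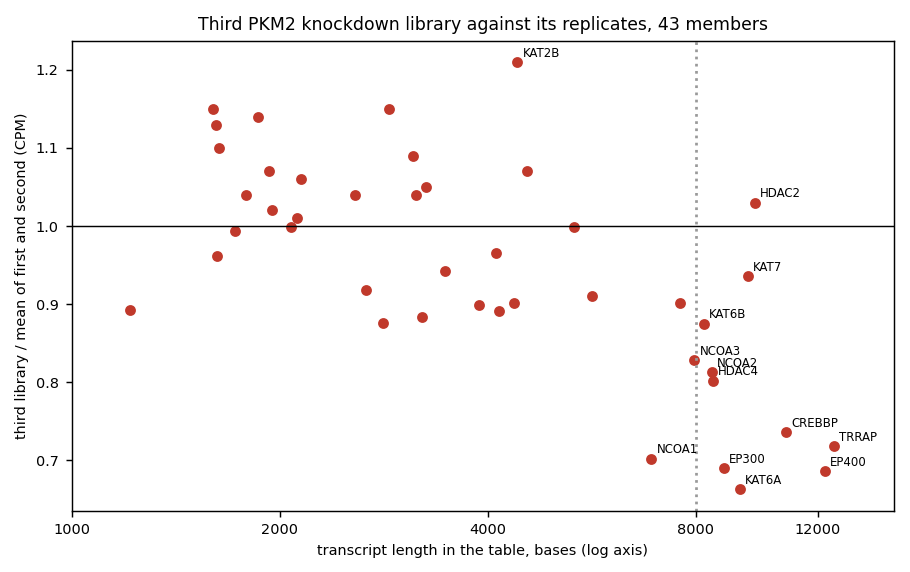
For each of the 43 members, CPM in the third PKM2-KD library divided by the mean of the first and second, against the transcript length in the table on a log axis, with the dotted line at 8000 bases. Of the 10 members to the right of the line 9 lie below 1, and those to the left scatter around 1 with NCOA1 as the lowest.

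The difference between the knockdowns was tested for every gene in 1 fit over the 12 libraries, each knockdown against its own NC. For 17 members the change after PKM2 knockdown was higher and for 8 it was lower, 39.5% and 18.6% of the list, against 25.7% higher and 27.4% lower of the 15995 genes tested. The median difference was 0.14 for the members and -0.02 for all genes. By family, 9 of 15 acetyltransferases had a higher and 1, KAT5, a lower change after PKM2 knockdown, and of the 7 sirtuins 3 (SIRT3, SIRT6 and SIRT7) had a higher one. The zinc-dependent deacetylases leaned the other way, with 2 higher (HDAC4 and HDAC9) and 4 lower (HDAC2, HDAC3, HDAC10 and HDAC11). For 6 members raised in both experiments (ELP3, HDAC1, HDAC7, SIRT5, BRD3 and BRPF1) and 2 lowered in both (KAT2B and NCOA1), the rise was larger after PKM2 knockdown for ELP3, BRD3 and BRPF1, and the difference was not called for HDAC1, HDAC7, SIRT5, KAT2B and NCOA1. For BRD3 the larger rise rested on the counts, with a difference of 0.04 by limma on log2(TPM + 1) (adjusted P = 0.839) against 0.36 in the count fit. The call on BRPF1 (0.32 ± 0.24, 95% interval, adjusted P = 0.0346) was lost without NC replicate 1 of the NONO experiment (0.23, adjusted P = 0.0867) and in 4 of the other 11 fits that left out 1 library. Those on HDAC4, KAT6B, BRD7 and TADA2A were likewise lost in 2, 6, 7 and 9 of 12 such fits, whichever experiment the library came from.

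As a view of the sequence in front of the members, RefSeq promoters (250 bases before to 50 after a start, GRCh38.p14) were searched on both strands for 4 common motifs. Of the 43 members 36 had an entry among the promoters searched, and a missing entry does not show that RefSeq lists no promoter. The GC box GGGCGG was in a promoter of 26 of these 36 members and in 45.0% of all 35116 promoters, the CCAAT box in 10 members and 34.6% of promoters, the E-box CACGTG in 3 members (HDAC4, SIRT1 and KAT5) and 7.26%, and the cAMP response element TGACGTCA in 1 member, SIRT4, and 1.85%. A member can have several promoters, so the counts of members and of promoters are not to be set against each other. Windows are shown for the 7 members that were DEGs after PKM2 knockdown, where one was found. In front of CREBBP, BRD2 and BRPF1 a GC box lay upstream of a start and outside annotated exons. The 30 bases around each are given here 5′ to 3′ on the gene's strand, with the GC box, or its reverse complement CCGCCC, in capitals.
CREBBP, chr16:3880760-3880789, minus strand: caccggcgtgccCCGCCCccaccccctccc
BRD2, chr6:32972956-32972985, plus strand: ggggatgttgcaGGGCGGcggcacaggggt
BRPF1, chr3:9732429-9732458, plus strand: tccctccggcccCCGCCCcttacttcctcc
The matches lay 64, 116 and 52 bases before the start. No GC box upstream of a start and outside annotated exons was found for NCOA3, HDAC2 or HDAC11. A promoter of HDAC11 did hold a GC box, but not under both conditions. ELP3 had no entry among the promoters searched, so its promoter was not examined. A match is a description of the letters, and no binding was measured here.

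Genes that work with the members were counted from 7 lists of 116 genes in all, to be read beside the shares of all genes, 16.2% raised and 17.2% lowered after NONO knockdown and 33.6% and 34.7% after PKM2 knockdown. The NuA4 partners of KAT5 were raised more often than lowered, with 5 raised and 1 lowered of 15 after NONO knockdown and 10 raised and 3 lowered after PKM2 knockdown, where their median was 0.39 beside -0.01 for all genes. EPC2, an Enhancer of Polycomb subunit, went from 26.2 ± 2.15 to 50.8 ± 3.10 CPM (SD, n = 3) after PKM2 knockdown (0.95, adjusted P = 3.57e-07) and also rose after NONO knockdown (0.58, adjusted P = 0.000229). VPS72, a histone-variant chaperone, rose by 0.75 on the log2 scale after PKM2 knockdown, and ING3 (-0.46) and RUVBL1 (-0.28) fell. ACTL6A rose (0.35) and MORF4L2 fell (-0.16) after NONO knockdown. KAT5 itself fell in the libraries in which 10 of these 15 partners rose.

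Of 17 SAGA and ATAC partners 5 were raised (29.4%) and 8 lowered (47.1%) after PKM2 knockdown, and their median of -0.01 was that of all genes. USP22, the SAGA deubiquitinase, fell in both experiments (-0.41, adjusted P = 0.000182, and -0.71, adjusted P = 4.59e-07), whereas ATXN7L3, which activates USP22 in the deubiquitinating module, rose after PKM2 knockdown (0.70), as did TAF6L (0.58). YEATS2, a reader subunit of ATAC, fell there (-0.70). After NONO knockdown 1 partner, ZZZ3 (0.33), was raised and 3 were lowered, SUPT3H (-0.44) among them. The partners of KAT6A, KAT6B, KAT7 and KAT8 gave 1 raised (MSL1, 0.21) and 1 lowered (MSL2, -0.26) of 14 after NONO knockdown and 5 raised and 6 lowered after PKM2 knockdown. There MSL2 rose (0.73) with KANSL2 (0.47), and BRPF3 (-0.57) and JADE3 (-0.52) fell.

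Among 31 subunits of deacetylase corepressors, 8 were raised (25.8%) and 4 lowered (12.9%) after NONO knockdown. After PKM2 knockdown 10 were raised (33.3%) and 8 lowered (26.7%) of 30 tested, a raised share near that of all genes. SAP130 of the Sin3 complex fell (-1.02, adjusted P = 3.24e-08), and the NuRD subunits GATAD2A (0.98) and MBD2 (0.79) rose. GATAD2A also rose after NONO knockdown (0.42), together with TBL1X (0.55), while TBL1XR1, a paralog of TBL1X, (-0.55) and RCOR1 (-0.38) fell.

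Of 20 other bromodomain and YEATS readers tested, 7 were raised (35%) and 3 lowered (15%) after NONO knockdown, and 6 raised (30%) and 8 lowered (40%) after PKM2 knockdown, the latter near the shares of all genes. TRIM24 fell in both (-0.31, adjusted P = 0.0101, and -1.69, adjusted P = 7.59e-09), and MLLT3, a YEATS protein of the super elongation complex, fell after PKM2 knockdown (-1.26) where BRWD1 (0.82) and BRWD3 (0.79) rose. After NONO knockdown BAZ1A (0.47) and MLLT1 (0.30) rose and BAZ2B (-0.55) fell.

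The last lists hold genes of acetyl-CoA and NAD metabolism, and not every gene on them makes the substrate. Of 9 genes for acetyl-CoA, 1 was raised (11.1%) and 4 lowered (44.4%) after NONO knockdown, and 3 raised (33.3%) and 5 lowered (55.6%) after PKM2 knockdown. ACSS2, which makes acetyl-CoA from acetate, fell in both (-0.65, adjusted P = 0.000336, and -0.96, adjusted P = 1.60e-06), and ACSS1, its mitochondrial counterpart, fell after NONO knockdown (-0.44) and rose after PKM2 knockdown (0.28). In the pyruvate dehydrogenase complex PDHA1 rose after NONO knockdown (0.16), and after PKM2 knockdown PDHB fell (-1.03) and PDHX rose (0.77). Of 8 genes tested around NAD, the cosubstrate of sirtuins, 1 was raised after NONO knockdown, NMNAT1 (0.57), and 4 were raised (50%) and 3 lowered (37.5%) after PKM2 knockdown. NMNAT1 rose there too (1.27) with NNMT (1.35), and NMRK1 (-1.33) and NADSYN1 (-1.16) fell.

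**Figure D5:**
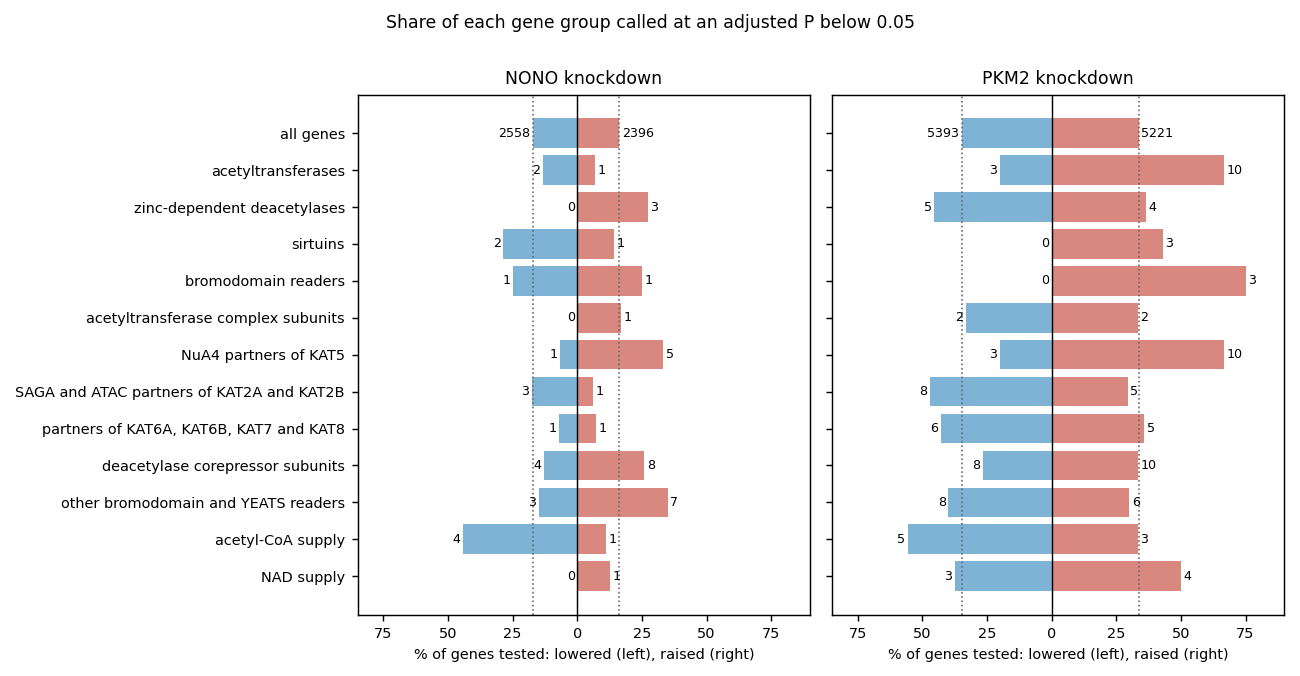
Share of the tested genes of each group called at an adjusted P below 0.05, lowered to the left and raised to the right, after NONO knockdown (left panel) and PKM2 knockdown (right panel), with the number of genes at each bar and dotted lines at the shares of all genes. After PKM2 knockdown 10 of 15 acetyltransferases and 10 of 15 NuA4 partners are raised, and 8 of 17 SAGA and ATAC partners are lowered.

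The balance of raised and lowered genes after NONO knockdown depended on the measure. Of all genes called there, 48.4% were raised in the count fit and 34.4% in the limma fit of log2(TPM + 1), where 4 members were raised and 4 lowered. After PKM2 knockdown that limma fit gave smaller changes without a call for KAT2A (0.09), KAT6A (0.16), HDAC4 (0.23), HDAC7 (0.07), HDAC6 (-0.08), TADA2A (-0.19) and TADA3 (0.11). In total 27 of the 43 members share exon bases with another gene of either strand in GENCODE 29, 17 of them with a protein-coding gene, so their counts hold for the pair as far as reads in the shared part could be assigned to either. BRD7, EP400, HDAC1 and BRD9 also have annotated pseudogenes, and their values are uncertain to that extent.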

How the data were processed

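Poly(A)-selected RNA of MDA-MB-231 cells was sequenced as paired reads of 150 bases in 12 libraries. The authors deposited 1 table per experiment, which gives for every gene a fractional estimated count and a TPM in each library. The submitters' notes name fastp, HISAT2, StringTie, RSEM, DESeq2, edgeR, limma and hg19 without roles or versions. The tables also hold the authors' fold changes, P values and mean TPM, which were not used. Coordinates are from GENCODE 29 (GRCh38) and promoters from RefSeq.

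Estimated counts were rounded and tested with edgeR 4.0.16 (R 4.3.3) by glmQLFit and glmQLFTest after TMM normalization and filterByExpr, with Benjamini-Hochberg adjustment over all genes. Each experiment was fitted alone, and the difference as an interaction over 12 libraries. SE came from the F statistic. Tried besides were DESeq2 1.42.0, limma 3.58.1 on log2(TPM + 1) or log2(TPM + 0.1) with genes under a mean of 1 TPM dropped or kept, size factors by relative log expression, no filter on counts, a replicate block, offsets for length and GC content, the cutoffs of the DEG definition, and each library left out. Summing SIRT7 with MAFG and HDAC10 with MAPK12 was added after seeing the data. The members, lists and tests were chosen with earlier results of these data known. Values in every library are given for KAT5, KAT2B, CREBBP, EP300 and each member called with a log2 fold change of at least 0.5 in size. Partner genes named are up to 2 called with the largest rise and up to 2 with the largest fall per list and knockdown, and 1 gene that this rule names is not reported here.

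The fits were tested on simulated counts. Of 100 genes changed 2-fold, edgeR recovered 81 among 14832 genes for the NONO experiment, 77 among 15524 for the PKM2 experiment and 65 among 15995 for the difference. Of 100 changed 1.5-fold it recovered 76, 73 and 43, with 9, 20 and 6 false calls. These are far fewer changed genes than the 4954, 10614 and 8497 called in the data. The adjustment over all genes was therefore stricter in the simulation, and its recovery rates do not give those of the real fits. Depth was 19861762 to 28455268 per library. With 3 libraries against 3, the smallest P of an exact permutation test is 0.1, so none was used.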

Additional observations from a re-analysis of the deposited data

Results flagged for a closer look

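For 25 of the 43 members the log2 fold change after PKM2 knockdown differed from that after NONO knockdown, beside 8497 of the 15995 genes tested. The test was the interaction test of edgeR over 12 libraries, with Benjamini-Hochberg adjustment over all genes. For each of these members the difference, PKM2 minus NONO, is given with its 95% interval. Among acetyltransferases it was higher for NCOA3 (0.93 ± 0.20, adjusted P = 8.37e-07), CREBBP (0.86 ± 0.24, adjusted P = 1.78e-05), ELP3 (0.70 ± 0.19, adjusted P = 1.06e-05), TAF1 (0.52 ± 0.18, adjusted P = 0.00014), KAT7 (0.47 ± 0.17, adjusted P = 0.000186), KAT8 (0.40 ± 0.18, adjusted P = 0.00153), HAT1 (0.38 ± 0.17, adjusted P = 0.001), KAT6B (0.30 ± 0.21, adjusted P = 0.0281) and KAT2A (0.22 ± 0.14, adjusted P = 0.014). It was lower for KAT5 (-0.91 ± 0.17, adjusted P = 1.84e-07). Among deacetylases and sirtuins it was higher for SIRT7 (1.24 ± 0.13, adjusted P = 1.43e-10), SIRT6 (1.03 ± 0.22, adjusted P = 5.23e-07), HDAC9 (0.82 ± 0.18, adjusted P = 9.21e-07), SIRT3 (0.47 ± 0.26, adjusted P = 0.00673) and HDAC4 (0.34 ± 0.22, adjusted P = 0.0205). It was lower for HDAC2 (-1.12 ± 0.13, adjusted P = 3.68e-10), HDAC11 (-0.83 ± 0.44, adjusted P = 0.00496), HDAC10 (-0.74 ± 0.24, adjusted P = 7.23e-05) and HDAC3 (-0.44 ± 0.16, adjusted P = 0.000201). Among readers and complex subunits it was higher for BRD2 (1.35 ± 0.12, adjusted P = 1.59e-11), BRD3 (0.36 ± 0.16, adjusted P = 0.00133) and BRPF1 (0.32 ± 0.24, adjusted P = 0.0346), and lower for TRRAP (-0.51 ± 0.24, adjusted P = 0.00191), TADA2A (-0.32 ± 0.25, adjusted P = 0.0432) and BRD7 (-0.20 ± 0.14, adjusted P = 0.0239). For SIRT7, BRD2 and HDAC3 both changes were called and had opposite signs. The SIRT7 value holds for SIRT7 and MAFG together, with 0.99 for their summed counts. The experiments used separate NC groups and separate tables, so a difference between the experiments cannot be told apart from one between the knockdowns where an NC level itself differed.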

How the results depend on the processing

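The direction and call of most members held. Over the fits other than those leaving out 1 library, 302 of 341 member values kept both after NONO knockdown, 288 of 344 after PKM2 knockdown and 276 of 342 for the difference, and over the fits that left out 1 library 239 of 258, 228 of 258 and 463 of 516. Of the rest, 17, 15 and 29 and then 3, 8 and 18 were values that were not called in either fit and changed sign. The 4954 genes called after NONO knockdown became 2645 by limma on log2(TPM + 1), 2657 on log2(TPM + 0.1), 1699 on log2(TPM + 1) without a filter and 437 by the DEG cutoffs. The 12 members called there became 6 by limma without a filter and 0 by the DEG cutoffs, with 17 at an unadjusted P below 0.05 by edgeR and 14 by DESeq2. The DEG cutoffs gave 3234 genes in place of 10614 and 7 members in place of 32 after PKM2 knockdown, and 2899 genes in place of 8497 and 4 members in place of 25 for the difference. Leaving out 1 library gave 3554 to 6249 genes and 10 to 19 members after NONO knockdown, 9891 to 10863 genes and 29 to 35 members after PKM2 knockdown, and 7969 to 8526 genes and 21 to 27 members for the difference. The highest count of 19 came without the first NC library. Among values called in at least 1 of the fits compared, the sign turned with the length and GC trend taken out for HDAC5 (0.32), HDAC6 (0.03) and EP400 (0.25) after PKM2 knockdown and for HDAC7 in the difference (0.22), and without the third PKM2-KD library for EP400 (0.15, in a range of -0.12 to 0.15 over the fits that left out 1 library). The cause was not tested. Under 1 or more settings that kept all libraries, the calls were lost on BRD3, ELP3, HDAC3, HDAC7, NCOA1 and SIRT3 after NONO knockdown, on HDAC3, HDAC4, HDAC6, HDAC7, KAT2A, KAT6A, NCOA2, TADA2A and TADA3 after PKM2 knockdown, and on BRD3, BRD7, BRPF1, HAT1, HDAC4, KAT2A, KAT6B, KAT7, SIRT3 and TADA2A for the difference. Calls were gained on CREBBP, HDAC10, KAT6A, KAT7 and NCOA2 after NONO knockdown, on BRD7, HDAC8, KAT6B, SIRT2, SIRT3 and TADA2B after PKM2 knockdown, with HDAC5 (adjusted P = 0.000233) and EP400 (adjusted P = 0.0134) called at their turned sign with the trend taken out, and on BRD9, HDAC5, NCOA2, SIRT1 and TADA3 for the difference, where HDAC7 was called at its turned sign.

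No trace of pairing by replicate number was seen. The deviations of same-numbered libraries correlated by -0.07, 0.04 and -0.04 in the NONO experiment and by -0.07, 0.01 and 0.01 in the PKM2 experiment. With 3 libraries a group this does not settle whether libraries were prepared in pairs. With a replicate block 4351, 10525 and 8239 genes and 11, 33 and 24 members were called after NONO knockdown, after PKM2 knockdown and for the difference. SIRT3 (adjusted P = 0.0623) then missed the threshold after NONO knockdown and TADA2A (adjusted P = 0.0502) for the difference, and KAT6B passed after PKM2 knockdown (0.19, adjusted P = 0.0339). Depth limits SIRT4 most, at 0.943 and 1.43 TPM in the NC groups, and 3 libraries a group limit small changes. In the simulated counts 43 of 100 differences of 1.5-fold were recovered, with far fewer changed genes than were called in the data.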
